A study of Mus musculus with 23 samples.

Results

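Open chromatin at the genes of the cytosolic ribosomal proteins was followed through 3 stages of mouse maxillary prominence mesenchyme. The genes were the protein-coding genes of RefSeq's GRCm38.p6 (mm10) annotation whose symbol begins with Rpl or Rps and a digit, together with Rplp0, Rplp1, Rplp2 and Rpsa and without the Rps6k kinases. The rule took 91 of the 21627 protein-coding genes on the 19 autosomes and X. Of these, 46 encode proteins of the large subunit, 31 encode proteins of the small subunit, 10 are paralogues with their own symbols, and 4 are other genes that the symbol rule takes in. ATAC-seq, the assay used, reads out open DNA from where the Tn5 transposase inserts sequencing adapters. Maxillary prominences, the paired facial swellings that form the upper jaw, came from wild-type C57BL/6 embryos of 3 ages, embryonic day 10.5 (E10.5), a day later (E11.5) and a further day later (E12.5), and the ectoderm was removed after Dispase digestion. There were 9 biological samples, 3 per stage, and 1 peak list per sample. The labels do not say how many embryos went into a sample, and stage is the only factor that separates the groups.

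Ribosomal proteins are needed in near equal numbers in every growing cell, and most are made from a single active gene among many silent processed copies. Their messenger RNAs begin with a C and a run of pyrimidines, the terminal oligopyrimidine tract, through which growth signals control their translation. Loss of 1 copy of several of these genes causes Diamond-Blackfan anaemia, which can include malformations of the face and palate. Because every cell needs ribosomes, these promoters are commonly taken as constitutively open.

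A gene was scored as called in a list when any base of a peak lay within 1 kb of its start or end. The lists held between 5682 peaks (E11.5 sample 1) and 50361 peaks (E12.5 sample 2), so a missing call can be a missing peak or a short list. E11.5 samples 2 and 3 held 24908 and 41457 peaks. The highest fold enrichment in a list ran from 17.9 to 20.4 in the E11.5 lists, from 5.83 to 7.47 in those of E10.5 and from 6.62 to 14.7 in those of E12.5. The authors gave no read counts per gene, so the depth behind each list is unknown. Of 10 mesenchyme markers, the E10.5 lists called 2 to 5, the E11.5 lists 1 to 8 and the E12.5 lists 2 to 6. Prrx1 and Prrx2, transcription factor genes that define craniofacial mesenchyme, were called by 0 lists. Of 10 epithelial markers, 0 to 3 were called per list, and Krt5, Krt14, Krt18 and Trp63 by 0. At most 3 of 6 endothelial, 2 of 6 blood, 3 of 6 neural and 1 of 4 myogenic markers were called in any list. No list called the blood genes Hba-a1, Hbb-bt, Gata1 and Ptprc, the endothelial genes Pecam1 and Tek, the neural gene Stmn2 or the myogenic genes Myf5 and Pax7. The other markers of these types were called at least once: 6 of 10 epithelial, 4 of 6 endothelial, 2 of 6 blood, 5 of 6 neural and 2 of 4 myogenic. For mesenchyme it was 8 of 10, and over all genes 65.4%. The blood gene Klf1, the neural gene Elavl4 and the mesenchyme gene Alx1 were each called by all lists of 1 stage and none of another (6.11% of all genes).

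Promoter sequences were available from RefSeq's GRCm38.p6 build for 70 of the 91 genes. Each sequence below runs 5′ to 3′ on the gene's strand, with 80 bases before the first transcribed base and 20 bases from it on. Capitals mark an ETS-family motif, a CCAAT box or a GC box on either strand, whose letters are given with the motif counts further on. They also mark a C followed by at least 4 pyrimidines beginning within 5 bases of the first transcribed base. The first group shows genes called by all 9 lists: Rpl27 (chr11:101442165-101442264, plus strand), Rpl15 (chr14:18270967-18271066, minus strand) and Rps21 (chr2:180257299-180257398, plus strand).
Rpl27: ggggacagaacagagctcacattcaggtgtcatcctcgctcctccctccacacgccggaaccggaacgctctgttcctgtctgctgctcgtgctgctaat
Rpl15: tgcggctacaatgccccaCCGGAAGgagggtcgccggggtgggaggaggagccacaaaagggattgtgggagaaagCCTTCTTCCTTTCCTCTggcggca
Rps21: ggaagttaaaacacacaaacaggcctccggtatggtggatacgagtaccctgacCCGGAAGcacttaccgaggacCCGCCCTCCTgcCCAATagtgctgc
Rpl15 and Rps21 held an ETS motif and a pyrimidine stretch, and the window of Rpl27 held none of the marked features.

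The next group shows genes called by all 3 E11.5 lists and by no other list: Rpl41 (chr10:128549149-128549248, minus strand), Rps23 (chr13:90923042-90923141, plus strand) and Rplp2 (chr7:141447571-141447670, plus strand).
Rpl41: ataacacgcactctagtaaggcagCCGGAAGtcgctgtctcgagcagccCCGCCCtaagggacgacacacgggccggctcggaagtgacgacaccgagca
Rps23: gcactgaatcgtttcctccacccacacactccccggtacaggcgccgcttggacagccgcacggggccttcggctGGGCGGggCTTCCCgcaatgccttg
Rplp2: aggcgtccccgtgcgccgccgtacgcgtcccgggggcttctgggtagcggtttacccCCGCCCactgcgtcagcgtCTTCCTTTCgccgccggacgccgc
A GC box stood in each of these windows. Rps23 and Rplp2 also held a pyrimidine stretch, and Rpl41 an ETS motif.

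The last group shows subunit genes that no list called at a gene boundary: Rps2 (chr17:24719983-24720082, plus strand), Rpl22 (chr4:152325646-152325745, plus strand) and Rps25 (chr9:44407634-44407733, plus strand). For Rpl22 and Rps2 the window surrounds a start that lies inside the annotated gene, described further on.
Rps2: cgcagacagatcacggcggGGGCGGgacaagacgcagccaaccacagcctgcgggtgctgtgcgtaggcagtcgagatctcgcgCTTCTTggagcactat
Rpl22: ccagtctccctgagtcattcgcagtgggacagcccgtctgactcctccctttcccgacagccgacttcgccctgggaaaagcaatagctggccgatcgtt
Rps25: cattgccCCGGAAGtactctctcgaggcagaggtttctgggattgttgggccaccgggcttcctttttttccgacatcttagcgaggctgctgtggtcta
Rps2 held a GC box and a pyrimidine stretch, Rps25 an ETS motif, and Rpl22 none of the marked features.

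Ribosomal protein genes were called most often in the longer E11.5 lists and in a minority of genes elsewhere. In the 3 E10.5 lists, 29, 38 and 37 of the 91 genes were called. In the 3 E11.5 lists, 29, 74 and 74 were called, and in the 3 E12.5 lists 24, 37 and 23. E11.5 samples 2 and 3 stood above every other list, and E11.5 sample 1 lay among the lists of the other stages. As shares, these counts were 31.9%, 41.8% and 40.7% at E10.5, where 31.4%, 35.4% and 27.0% of all genes were called. At E11.5 they were 31.9%, 81.3% and 81.3%, against 21.8%, 50.7% and 52.6% of all genes. At E12.5 they were 26.4%, 40.7% and 25.3%, against 19.4%, 36.9% and 26.3% of all genes. The mean over the lists of a stage was 38.1% ± 5.42 (SD, n = 3) for E10.5, 64.8% ± 28.6 for E11.5 and 30.8% ± 8.58 for E12.5, and the ranges of the stages overlapped. Without E11.5 samples 2 and 3, the E11.5 share was 31.9%, from 1 list.

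**Figure D1:**
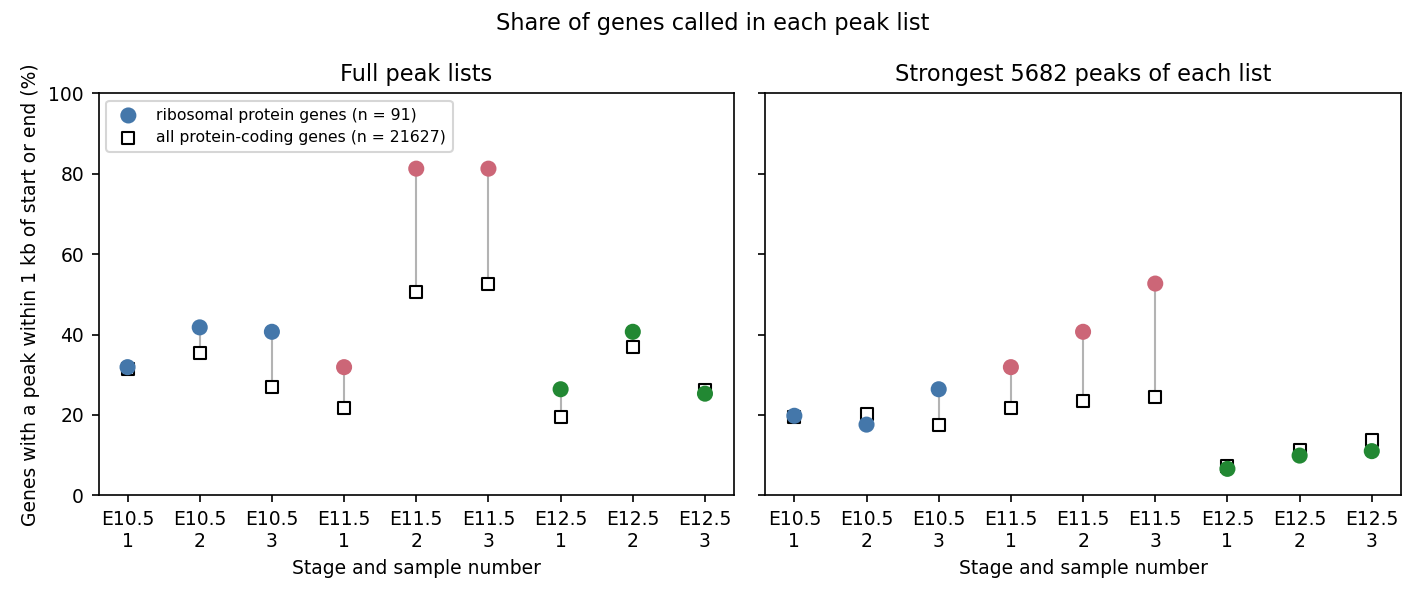
Percentage of ribosomal protein genes (filled circles, coloured by stage) and of all protein-coding genes (open squares) with a peak within 1 kb of their start or end, for each of the 9 peak lists. The left panel uses the full lists and the right panel the strongest 5682 peaks of each. The filled circles stand farthest above the squares in E11.5 samples 2 and 3, at 81.3% against 50.7% and 52.6% in the full lists.

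Lists of equal length were made from the strongest 5682 peaks of each by the peak caller's −log10 q, as many as the shortest list holds. The ribosomal protein genes were then called at 19.8%, 17.6% and 26.4% at E10.5, against 19.5%, 20.3% and 17.5% of all genes. At E11.5 they were called at 31.9%, 40.7% and 52.7%, against 21.8%, 23.5% and 24.5%. The E12.5 lists called 6.59%, 9.89% and 11%, against 7.3%, 11.4% and 13.7%. In lists of equal length the 3 E11.5 lists lay above the other 6 for these genes, and for all genes as well, by a smaller margin. The 3 E12.5 lists lay below the other 6 in both sets. The highest fold enrichment of the lists, a value of 1 peak each, also set E11.5 apart (17.9 to 20.4, against at most 14.7 elsewhere). The median fold of the full lists did not. It was 5.06, 4.98 and 3.13 in the E11.5 lists, 3.13 in E10.5 sample 1 and 3.5 in E12.5 sample 1. The part of fold enrichment in the difference was not tested.

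The shares called lay close together for the large and the small subunit. Of 46 large subunit genes, the E10.5 lists called 42% ± 6.64 (SD, n = 3 lists), the E11.5 lists 72.5% ± 30.8 and the E12.5 lists 31.9% ± 12.0. Of 31 small subunit genes, the E10.5 lists called 38.7% ± 6.45, the E11.5 lists 72.0% ± 34.5 and the E12.5 lists 34.4% ± 3.72. Both sets come from the same lists, so these SDs describe the spread between lists and not the gap between the subunits. Within a list the gap went either way. The large subunit was higher in E10.5 sample 3 (47.8% against 38.7%) and lower in E12.5 sample 1 (23.9% against 32.3%). Taken as 77 genes, the subunit proteins reached 90.9% in E11.5 samples 2 and 3, 35.1% in E11.5 sample 1, 33.8% to 44.2% in E10.5 lists and 27.3% to 42.9% in E12.5 lists.

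Few ribosomal protein genes were called in every list, and few in none. All 9 lists called 5 of the 91 genes (5.49%), where the background over all genes was 6.1%. No list called 12 (13.2%), where the background was 34.6%. The median gene was called by 4 lists, and the median of all genes was 2. At least 1 list called 79 of the 91 (86.8%), against 65.4% of all genes, and 73 of the 77 subunit genes (94.8%). The share called everywhere was thus near the background, and the wider gap to all genes was in the share called nowhere, which was not tested. Among mitochondrial ribosomal protein, respiratory chain and splicing factor genes, the share called nowhere was 3.85%, 11.8% and 4.17%. A call by all 9 lists needs one in the shortest list, so these counts cannot say whether the promoters are open in every sample. All 3 E10.5 lists called 16 of the 91 genes (background 19.1%), all 3 E11.5 lists 29 (background 21.5%) and all 3 E12.5 lists 6 (background 10.9%).

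**Figure D2:**
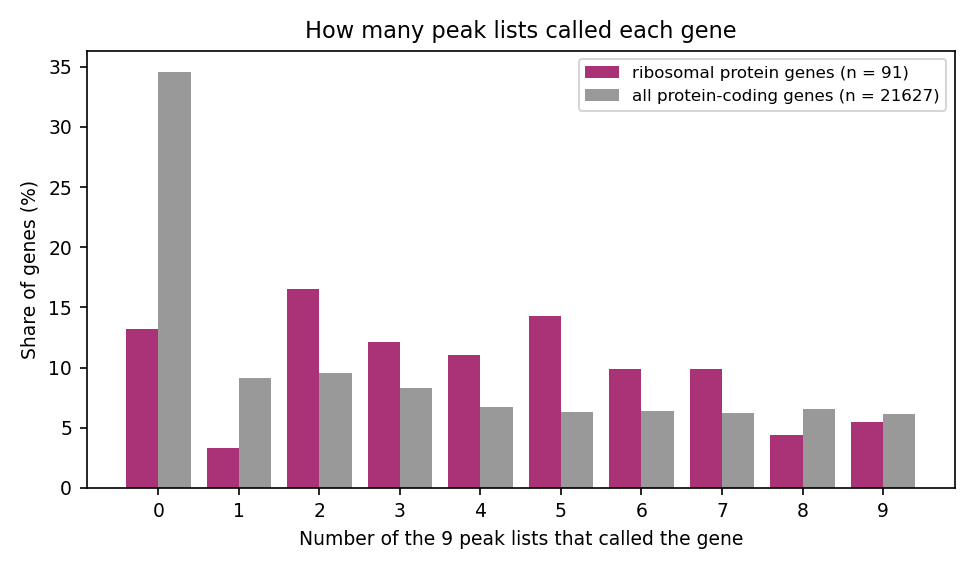
Share of ribosomal protein genes (purple bars, n = 91) and of all protein-coding genes (grey bars, n = 21627) by the number of the 9 peak lists that called them. Ribosomal protein genes were less often at 0 lists (13.2% against 34.6%) and lay close to all genes at 9 lists (5.49% against 6.1%).

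Rpl15, a large subunit protein, had the highest median rank of the 5 genes called by every list. The strongest peak of Rpl15 (gene at chr14:18267823-18270986) stood at percentiles 98.7, 97.5 and 99.6 of the peaks in E10.5 samples 1 to 3, 95.4, 99.8 and 99.6 in the E11.5 samples and 89.3, 97.4 and 99.2 in the E12.5 samples. Its fold enrichment, in the authors' lists, was 5.5, 4.22 and 4.69 in the E10.5 samples, 8.86, 14.6 and 11.9 in the E11.5 samples and 4.6, 3.58 and 4.69 in the E12.5 samples. The gene Nkiras1 begins or ends within 1 kb of Rpl15, so the peak cannot be given to 1 of them.

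Rps29 (chr12:69157722-69159186), a small zinc-binding protein of the small subunit, stood at percentiles 97.0, 98.7 and 96.1 in the E10.5 lists, 66.0, 95.2 and 98.0 in the E11.5 lists and 97.1, 97.9 and 82.0 in the E12.5 lists. No other protein-coding gene has a boundary within 1 kb of it. Its lowest rank fell in the shortest list, E11.5 sample 1. Rps21 (chr2:180257379-180258444), another small subunit protein, stood at percentiles 67.5, 89.1 and 94.6 in the E10.5 lists, 63.5, 88.3 and 97.4 in the E11.5 lists and 41.7, 97.2 and 23.9 in the E12.5 lists. Its ranks at E12.5 spread more widely than at the earlier stages, and Cables2 has a boundary within 1 kb. Rpl27 (chr11:101442245-101445596) stood at percentiles 54.7, 90.8 and 85.1 in the E10.5 lists, 43.2, 87.0 and 95.7 in the E11.5 lists and 95.4, 93.0 and 87.2 in the E12.5 lists. Rpl21 (chr5:146832890-146837032), mutated in a hereditary hair-loss disorder, had the lowest median rank of the 5 and the lowest single rank, at percentiles 86.3, 68.9 and 37.9 in the E10.5 lists, 59.0, 86.7 and 93.2 in the E11.5 lists and 14.7, 80.3 and 40.0 in the E12.5 lists. Being called in every list did not place a gene's peak at the same rank in each: the rank of Rpl21 ran from 14.7 to 93.2.

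The remaining large subunit genes spread over all numbers of lists. Rpl7, Rpl37 and Rpl27a were called by 8 lists, and Rpl31, Rpl26, Rpl34, Rpl9, Rpl13a and Rpl14 by 7. Rpl3, which sits at the peptidyl transferase centre, was called by 6 lists, as were Rpl5 and Rpl4. Rpl23, Rpl30, Rpl35a, Rpl13, Rpl39 and the stalk base gene Rplp0 were called by 5 lists. Rpl11, which with Rpl5 and the 5S ribosomal RNA forms the particle that binds Mdm2, was called by 4, and so were Rpl7a and Rpl12. Calls from 3 lists were found at Rpl37a, Rpl41, Rpl8, Rpl24, Rpl28, Rpl29, Rpl10 and Rplp2. Calls from 2 lists were found at Rpl23a, Rpl36, Rpl35, Rpl6, Rpl32, Rpl18, Rplp1 and Rpl36a. Rpl19, Rpl38 and Rpl10a were called by 1 list, and Rpl17 and Rpl22 by none.

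The small subunit genes had a similar spread. Rps13 was called by 8 lists, and Rps19 by 7. Rps28, Rps3a1, Rps20, Rps16 and Rps15a were called by 6. Rps6, whose protein is the best-known substrate of the S6 kinases, was called by 5 lists, with Rps24, Rps14 and Rps9. Calls from 4 lists were found at Rps12, Rps26, Rps27a, and Rps7, where Rps27a encodes a fusion of ubiquitin with the ribosomal protein. Rps23, a protein of the decoding centre, was called by 3 lists, with Rps10 and Rps18. Rps15, Rps27, Rps3, Rps4x and Rpsa were called by 2 lists, and Rps2 and Rps25 by none.

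**Figure D3:**
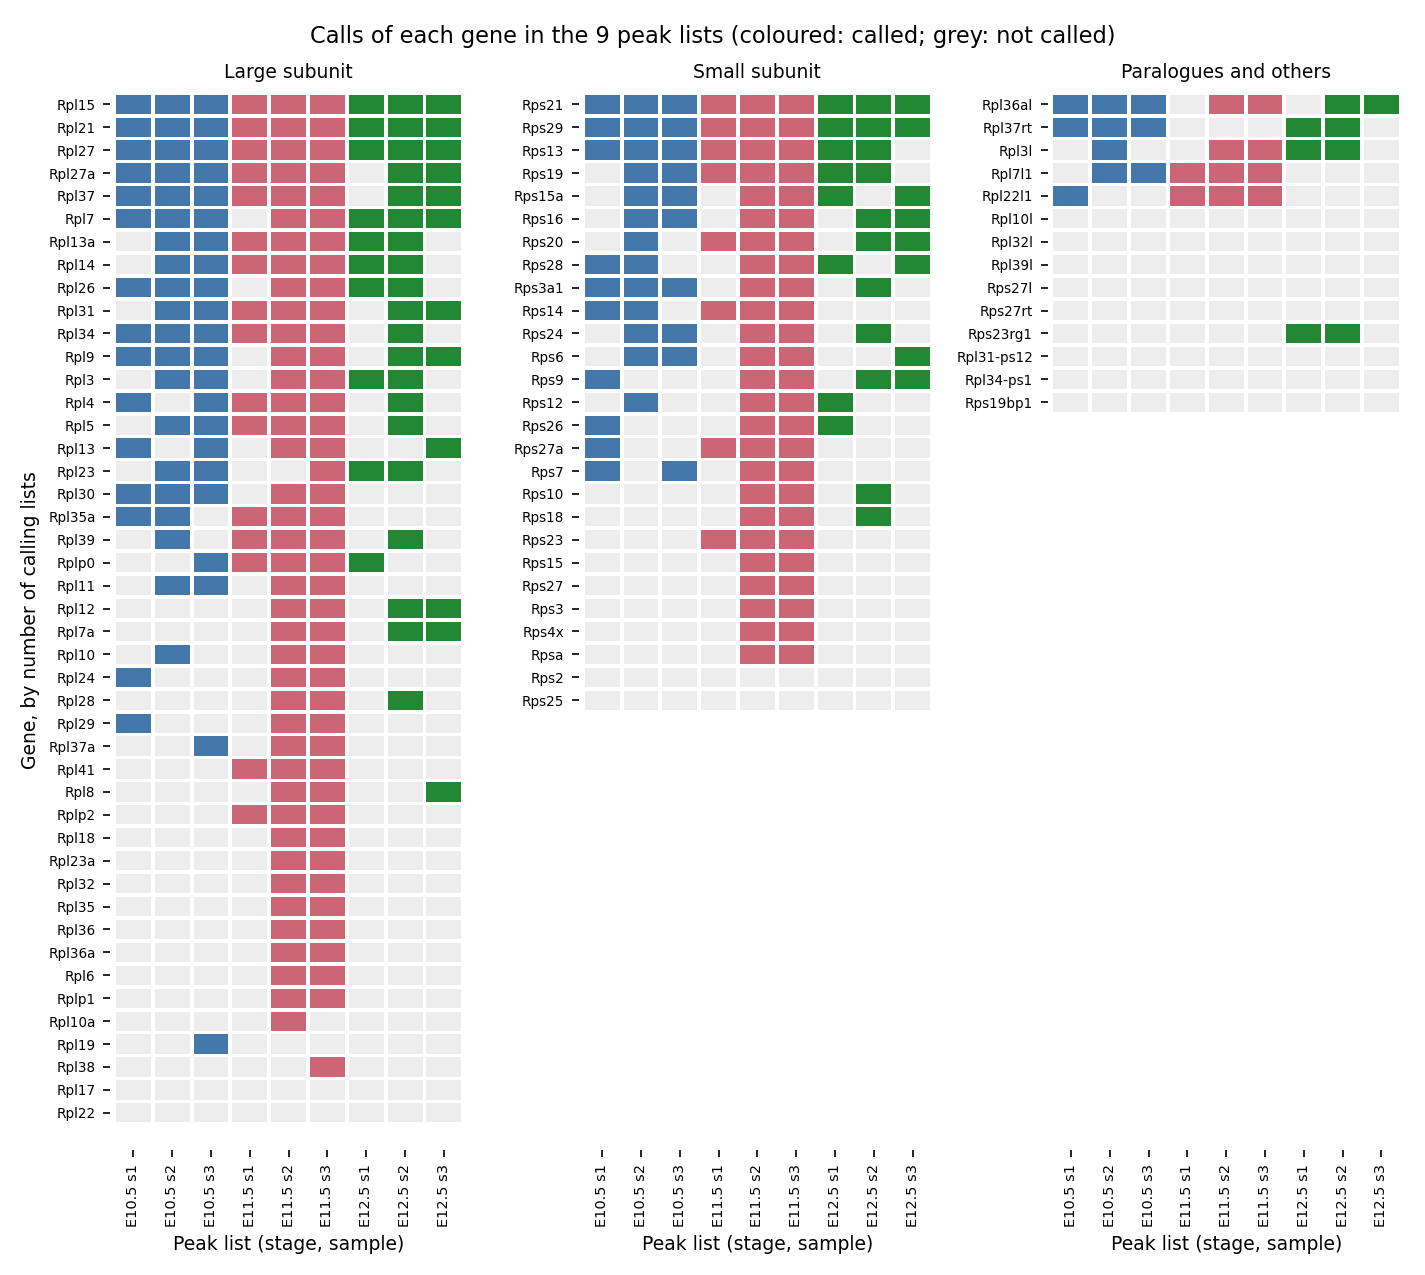
Calls of 86 of the 91 ribosomal protein genes (rows) in the 9 peak lists (columns, by stage and sample), split into large subunit, small subunit, and paralogues with other genes, and sorted by the number of calling lists. A coloured cell is a call and a grey cell is no call; the columns of E11.5 samples 2 and 3 are coloured for the most genes.

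Where the number of calls differed between stages, E11.5 most often had the most, as it did over all genes. The number of calling lists differed between stages by 2 or more for 45 of the 91 genes (49.5%), against 26.7% of all genes, and 36 of these 45 had more calling lists at E11.5 than at either other stage. Over all genes, 3478 of 5773 such genes (60.2%) did, so most differences of this size fell on E11.5 in general. E11.5 samples 2 and 3 both called 72 of the 91 genes (79.1%), where 45.9% of all genes were called by both. They were the only lists to call 13 genes (14.3%, against 4.87% of all genes): Rps15, Rpl23a, Rpl36, Rpl35, Rps27, Rpl6, Rpl32, Rpl18, Rps3, Rplp1, Rpsa, Rps4x and Rpl36a. The same pattern was held by 12 of 78 mitochondrial ribosomal protein genes, 9 of 85 respiratory chain genes and 4 of 48 splicing factor genes. Each of the 29 ribosomal protein genes called in E11.5 sample 1 was also called in both other E11.5 lists. So were 4649 of the 4724 genes of any kind that E11.5 sample 1 called. Among the E10.5 lists, sample 1 shared 19 genes with sample 2 (65.5% and 50.0% of their calls) and 19 with sample 3 (65.5% and 51.4%), and samples 2 and 3 shared 30 (78.9% and 81.1%). Among the E12.5 lists, sample 2 shared 17 genes with sample 1 (45.9% and 70.8%) and 17 with sample 3 (45.9% and 73.9%), and samples 1 and 3 shared 8 (33.3% and 34.8%). The overlaps within E10.5 and within E12.5 are of ribosomal protein genes and were not counted over all genes.

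A further set of genes was called by E11.5 samples 2 and 3 with single additional lists. E10.5 sample 1 was the additional list for Rpl24 and Rpl29, E10.5 sample 2 for Rpl10, and E10.5 sample 3 for Rpl37a. E12.5 sample 2 was the additional list for Rps10, Rps18 and Rpl28, and E12.5 sample 3 for Rpl8. The E12.5 sample 2 calls of Rps10, Rps18 and Rpl28 lay only at the gene's far end. Rpl7a and Rpl12 were called by E11.5 samples 2 and 3 and E12.5 samples 2 and 3. Rpl11 was called by samples 2 and 3 of E10.5 and of E11.5, and Rps7 by E10.5 samples 1 and 3 with E11.5 samples 2 and 3. Rps3a1 was called by the 3 E10.5 lists, E11.5 samples 2 and 3 and E12.5 sample 2.

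Calls from all 3 E11.5 lists and no other were made at Rpl41, Rps23 and Rplp2 (3.3% of the 91 genes, against 1.53% of all). Rps23 had its strongest peak at percentiles 7.28, 45.2 and 85.0 in E11.5 samples 1 to 3, with summits at 145, −13 and −16 bp from its start, where negative positions lie before the gene. Rplp2, a stalk protein that recruits the translational GTPases, stood at percentiles 12.6, 45.8 and 87.6, with summits at −309, −382 and −337 bp. Pidd1 has a boundary within 1 kb of Rplp2, so these peaks cannot be given to 1 of the genes. Rpl41, one of the smallest known proteins, stood at 48.5, 78.7 and 92.1. In the 3 lists its strongest summit lay 1337, 1345 and 1348 bp from the start, at the gene's far end, where Zc3h10 has a boundary, and samples 2 and 3 also had a peak near the start. The ranks of Rps23 and Rplp2 in E11.5 sample 1 were near the bottom of that list.

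Counting genes called by all lists of 1 stage and none of another, 11 of the 91 (12.1%, against 6.11% of all genes) qualified, some of them for more than 1 pair of stages. All 3 E11.5 lists and no E12.5 list called Rpl41, Rps27a, Rps23, Rpl35a, Rpl7l1, Rps14, Rpl22l1 and Rplp2, which is 8 genes (8.79%, against 4.46% of all genes). Of these, Rps27a and Rpl22l1 were also called in E10.5 sample 1, Rpl35a and Rps14 in E10.5 samples 1 and 2, and Rpl7l1 in E10.5 samples 2 and 3. All 3 E11.5 lists and no E10.5 list called 4 genes (4.4%, against 2.14%), Rpl41, Rps23 and Rplp2 among them. All 3 E10.5 lists and no E12.5 list called Rpl30 (1.1%, against 1.2%). All 3 E10.5 lists and no E11.5 list called Rpl37rt (1.1%, against 0.0879%). None of the 91 was called by all 3 E12.5 lists and no E10.5 list (background 0.398%) or no E11.5 list (background 0.277%).

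Rpl30 ranked at percentiles 62.4, 55.1 and 72.6 in the E10.5 lists and 93.0 and 91.2 in E11.5 samples 2 and 3. Rpl37rt, a retrotransposed copy of Rpl37, ranked at percentiles 17.7, 22.3 and 37.9 in the E10.5 lists and 87.7 and 93.4 in E12.5 samples 1 and 2. The summits of its strongest peaks lay at −526, −497 and −445 bp from its start in the E10.5 lists and at 540 and 36 bp in the E12.5 lists. The last of these calls rested on 3 peaks, of which only the strongest is given. Acads has a boundary within 1 kb of Rpl37rt.

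A last set had calls from all 3 E11.5 lists and from 1 list or more of both other stages. Rpl39 and Rps20 were called in E10.5 sample 2 and the 3 E11.5 lists, with E12.5 sample 2 for Rpl39 and E12.5 samples 2 and 3 for Rps20. Rplp0 was called in E10.5 sample 3, the 3 E11.5 lists and E12.5 sample 1. Rpl5 had E10.5 samples 2 and 3, the 3 E11.5 lists and E12.5 sample 2, and Rpl4 had E10.5 samples 1 and 3 in their place. Rpl34 was called by the 3 E10.5 lists, the 3 E11.5 lists and E12.5 sample 2.

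Only E11.5 lists called 18 of the 91 genes (19.8%, against 10.8% of all genes). They alone also called 22 of 78 mitochondrial ribosomal protein genes, 13 of 85 respiratory chain genes and 9 of 48 splicing factor genes. Lists of E10.5 alone called 1 of the 91 (1.1%, against 1.18%), which was Rpl19 in sample 3. The Rpl19 peak lay at the gene's far end, with its summit 9110 bp from the start. Lists of E12.5 alone called 1 (1.1%, against 4.81%), which was Rps23rg1, a retrotransposed relative of Rps23, in samples 1 and 2.

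An exact two-sided permutation test over all assignments of stages to the 9 lists, run on the 12829 genes called by 1 to 8 lists, passed 0 genes (0.0%) after Benjamini-Hochberg adjustment at 0.05. The unadjusted p was under 0.05 for 532 genes (4.15%) and for 3 of the 74 ribosomal protein genes tested (4.05%), a share near the background. The 3 were Rpl41, Rps23 and Rplp2, with the smallest p the exact test can give, 0.0357 (adjusted p 0.861). With that smallest p, a gene could pass the adjustment only if most of the genes tested reached it. The 0 genes passed therefore cannot show that calls do not differ between stages. Without E11.5 sample 1, 17 of the 73 members tested (23.3%) had an unadjusted p under 0.05 in place of 3, and the share of all genes tested was then 13.7%. Genes called by all lists of 1 stage and none of another then numbered 36 members (39.6%) in place of 11, and 16.8% of all genes. The members with an unadjusted p under 0.05 numbered 6 without E10.5 sample 1 (8.11%, against 5.65% of all genes tested), 5 without E10.5 sample 3 (6.85%, against 5.71%) and 6 without E12.5 sample 3 (8.22%, against 6.25%).

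The P stalk genes Rplp0, Rplp1 and Rplp2 gave 0, 0 and 1 calls of 3 genes in the E10.5 lists, 2, 3 and 3 in the E11.5 lists, and 1, 0 and 0 in the E12.5 lists. The 4 genes on chromosome X, Rpl10, Rpl36a, Rpl39 and Rps4x, were called by 3, 2, 5 and 2 lists, where the median over all genes was 2. Of these 4, E10.5 lists called 0, 2 and 0, E11.5 lists 1, 4 and 4, and E12.5 lists 0, 1 and 0. For the 19 genes with known Diamond-Blackfan anaemia mutations in people, the median was 5 lists and 3 (15.8%) were called by all 9, against a median of 2 lists and 6.1% over all genes. E10.5 lists called 8, 12 and 11 of the 19, E11.5 lists 7, 19 and 18, and E12.5 lists 9, 9 and 6. Each of these counts stands beside the shares of all genes in the same lists, 27.0% to 35.4% for E10.5, 21.8% to 52.6% for E11.5 and 19.4% to 36.9% for E12.5.

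Among the genes whose mouse mutants have visible body or skin defects, Rpl27a (Sooty foot ataxia) was called by 8 lists, Rps19 by 7, Rps20 by 6, Rps7 by 4, Rpl24 (Belly spot and tail) by 3 and Rpl38 (Tail short) by 1. Rpl38 was called in E11.5 sample 3, and with the start of the promoter table, 762 bp inside the annotated gene, in E11.5 sample 2 as well. These 6 genes thus ran from 1 to 8 lists, nearly the whole range of the 91.

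The 10 paralogues were called by a median of 2 lists, against 4 for the subunit genes. E10.5 lists called 3, 4 and 3 of the 10, E11.5 lists 2, 4 and 4, and E12.5 lists 2, 3 and 1. Rpl36al was called by 7 lists. Rpl3l, the striated-muscle form of Rpl3, was called by 5, with Rpl7l1 and Rpl37rt, and Rpl22l1 by 4. In 3 of its 5 lists the call of Rpl3l lay only at its far end. Rpl10l and Rpl39l, known from the testis, were called by no list, and neither were Rpl32l, Rps27l and Rps27rt. Of the 4 other genes, Rps23rg1 was called by 2 lists, and Rpl31-ps12, Rpl34-ps1 and Rps19bp1, which encodes a protein that binds Rps19, by none.

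The 4 subunit genes without a call differed in what lay around them. Rpl22 (chr4:152324436-152334082), an RNA-binding protein whose paralogue is Rpl22l1, had a peak inside the gene in 8 lists. A second start in the promoter table lies 1290 bp inside the annotated gene, and with it Rpl22 was called by 8 lists, all but E12.5 sample 3. The promoter sequence shown for Rpl22 surrounds that start. Rps2 (chr17:24718121-24721927), which lines the messenger RNA entry channel, has its table start 1942 bp inside the gene and was then called by E11.5 samples 2 and 3. Rpl17 (chr18:74998978-75003381), a protein of the exit tunnel, had a peak inside the gene in 4 lists. Rps25 (chr9:44407714-44410406), a protein needed for some internal initiation of translation, had no peak inside it in any list, and the nearest peak was 2434 bp away, in E10.5 sample 3. The boundaries of Trappc4 and Ccdc84 lie within 1 kb of Rps25.

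With every start of the promoter table added to the gene boundaries, the genes called by no list fell from 12 to 9 of 91, and over all genes the share was 31.1%. Rps27l, a p53-responsive paralogue, was then called by 4 lists. The genes still without a call were Rpl17, Rps25, Rpl32l, Rpl10l, Rpl39l, Rps27rt, Rpl31-ps12, Rpl34-ps1 and Rps19bp1.

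The rank of the peaks at ribosomal protein genes against those at all called genes varied by list. In the E10.5 lists the median percentile of the strongest peak was 74.6, 65.8 and 70.6, against 74.4, 75.8 and 74.8 for all called genes. In the E11.5 lists the values were 51.8, 77.5 and 89.4, against 57.6, 74.9 and 85.0. In the E12.5 lists they were 44.0, 78.0 and 60.1, against 64.4, 74.3 and 72.6. The members' median lay above that of all called genes in 4 of the 9 lists, among them E11.5 samples 2 and 3, and below it in the other 5, by the widest margins in E12.5 samples 1 and 3. The median width of their peaks was 262 to 429 bp in the E10.5 lists (258 to 457 bp for all called genes), 289 to 576 bp in the E11.5 lists (316 to 571 bp) and 102 to 330 bp in the E12.5 lists (108 to 294 bp).

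**Figure D4:**
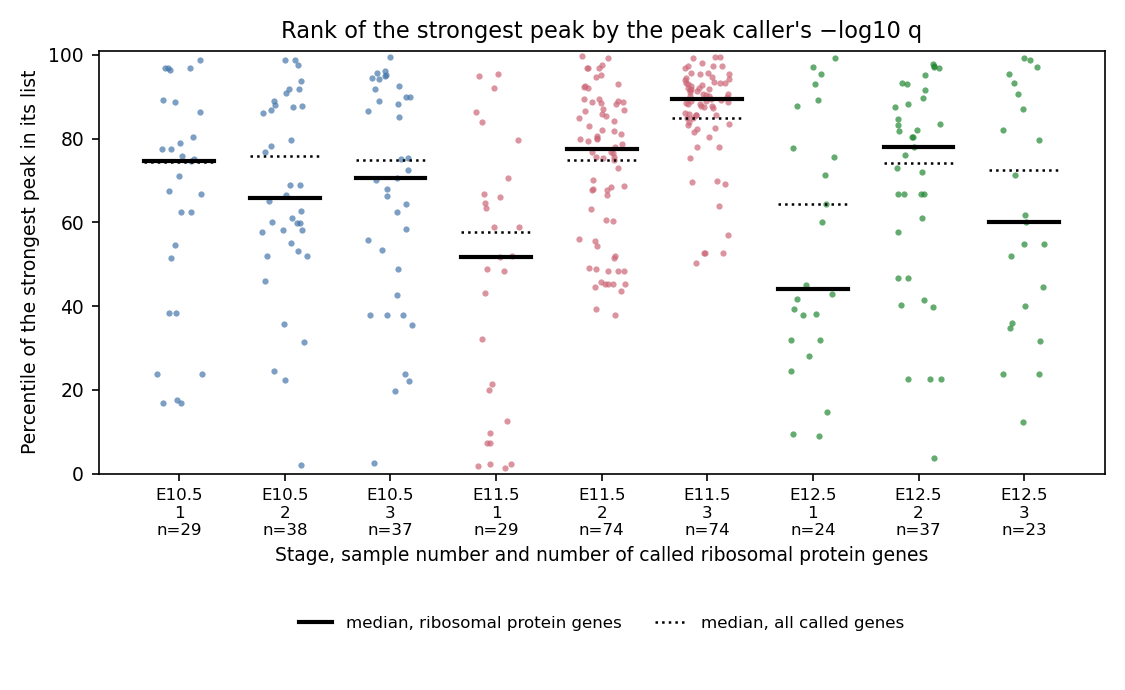
Percentile of the strongest peak at each called ribosomal protein gene among all peaks of its list (points, ranked by the peak caller's −log10 q), with the members' median (solid line) and the median of all called genes (dotted line), by stage and sample. The members' median is 89.4 in E11.5 sample 3 and 44.0 in E12.5 sample 1, where the median of all called genes is 64.4.

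Where strand was known, most peaks of ribosomal protein genes lay at the gene start. Of 276 calls at 60 genes, 262 (94.9%) included a peak within 1 kb of the start, against 94.4% of all calls. The median summit lay 12 bp before the first transcribed base, against 49 bp inside the gene over all genes. The middle 50% of summits ran from −81.5 to 68 bp, against −75 to 400 bp. The summit lay within 250 bp of the start in 79.0% of calls, against 58.9% over all genes, and the members' share was higher in each of the 9 lists. Calls of 1 gene in several lists share that gene, so the 276 calls are not independent. The 14 calls at the far end only were made at Rpl13a, Rpl19, Rpl28, Rpl3l, Rpl4, Rpl41, Rpl7l1, Rps10 and Rps18.

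**Figure D5:**
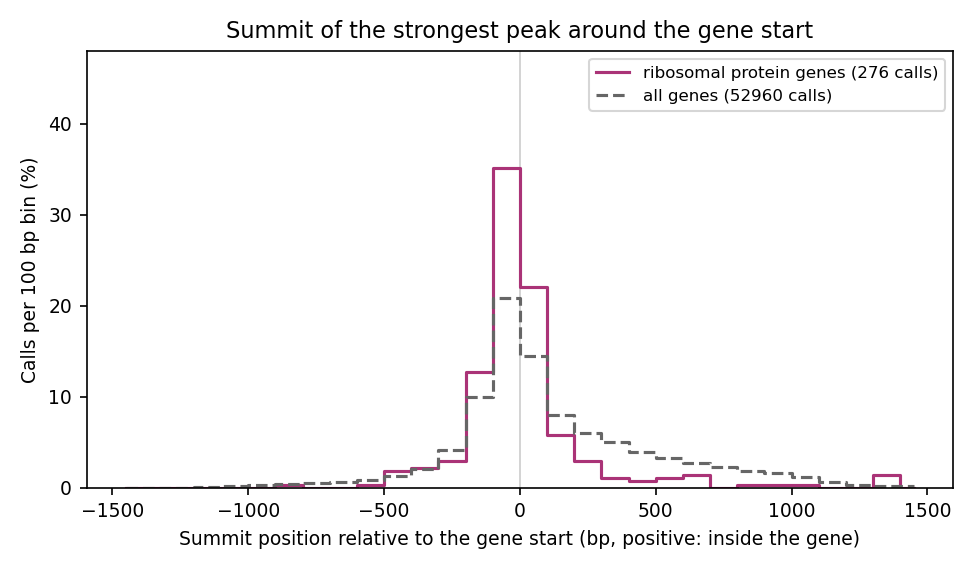
Position of the summit of the strongest peak relative to the gene start, in bins of 100 bp, as a percentage of calls, for ribosomal protein genes (solid line, 276 calls) and all genes (dashed line, 52960 calls). The bin just before the start holds 35.1% of the members' calls and 20.8% of all calls; 6.88% and 6.67% of calls lie outside the plotted range.

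The promoters of the 70 genes with a sequence, each 250 bases before to 50 bases from the first transcribed base on, were searched for short motifs on both strands. The ETS motif CCGGAAG was in 25 (35.7%), against 12.1% of 17273 promoters. The CGCG-centred motif TCTCGCGAG was in 6 (8.57%), against 1.04%, and AAGATGGCG, the YY1 motif, in 4 (5.71%), against 1.92%. The GC box GGGCGG was in 40 (57.1%), against 46.9%, but on the gene strand alone in 27.1%, against 30.8%. The CCAAT box was found in 22 (31.4%), against 39.6%. Shares of the E-box CACGTG (7.14% against 8.01%), TATAAA (12.9% against 13.4%, but 11.4% against 9.04% on the gene strand) and the NRF1 motif GCGCATGCG (2.86% against 2.43%) lay close to those of all promoters. A C followed by at least 4 pyrimidines stood at the first transcribed base in 14 of the 70, against 2.19% of all promoters, and began within 5 bases of it in 31 (44.3%), against 19%. No searched motif contains another. The median GC content was 57.0%, against 56.3% of all promoters.

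Motif content and calls were then set side by side. Genes with the ETS motif were called by a median of 3 lists and those without by 4. Genes with a pyrimidine stretch within 5 bases of the start were called by a median of 4 lists, as were those without. The 6 genes with TCTCGCGAG had a median of 6.5 lists and the other 64 a median of 3.5. The 9 genes with TATAAA had a median of 2 and the other 61 a median of 4. These medians are descriptions of a few genes each.

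A neighbouring protein-coding gene had a boundary within 1 kb of 32 of the 91 genes (35.2%), against 25.1% of all genes. The median was 4 lists for the members with such a neighbour and 4 for those without. Over all genes it was 4 with a neighbour and 2 without.

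Other genes of protein synthesis had medians of 4 to 5.5 lists, against 2 over all genes. Of all genes, 6.1% were called by all 9 lists and 34.6% by none. Of 14 translation factors whose messenger RNAs carry the same pyrimidine start, the median was 5 lists, 1 was called by all 9, and Eef2, which encodes the elongation factor that drives translocation, by none. Of 30 ribosome biogenesis factors, the median was 5.5 lists, 5 were called by all 9, and Ubtf, the ribosomal DNA transcription factor, by none. Of 12 regulators of ribosomal protein synthesis, the median was 4 lists and 2 were called by all 9. Among the 78 mitochondrial ribosomal protein genes, which belong to a separate ribosome, E10.5 lists called 41.0%, 46.2% and 35.9%, E11.5 lists 29.5%, 89.7% and 80.8%, and E12.5 lists 15.4%, 34.6% and 26.9%. Nuclear genes of the respiratory chain (85) were called at 47.1%, 55.3% and 37.6% in the E10.5 lists, 34.1%, 76.5% and 83.5% in the E11.5 lists and 27.1%, 41.2% and 31.8% in the E12.5 lists. Splicing factor genes (48) were called at 58.3%, 54.2% and 41.7%, then 37.5%, 89.6% and 91.7%, then 31.2%, 50.0% and 35.4%. The cytosolic ribosomal protein genes lay within the range of these 3 groups in 6 lists, the 3 of E11.5 among them, and below all 3 groups in E10.5 samples 1 and 2 and E12.5 sample 3. None of the genes in these lists passed the stage test, which passed 0 of all genes tested.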

How the data were processed

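Per the submitters' processing notes, the authors used Bowtie2, MACS2 and deepTools 3.3.1 with mm10; the sources used here give no read filter, transposase shift or peak threshold. Each deposited list, 1 per sample from 1 to 4 of the 23 runs, gives a fold enrichment (ratio), a −log10 q-value and a summit offset per peak. These values are the authors' and were used only within a list. Genes came from RefSeq (GRCm38.p6), which gave starts and ends; strand came from its promoter table. Exons, introns and untranslated regions were not separated.

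Calls, ranks, motifs and the exact permutation test with Benjamini-Hochberg adjustment were computed in Python 3.11.15 with NumPy 2.4.6, pandas 2.3.3 and SciPy 1.17.1, and the test was checked on simulated data. Members and gene lists were chosen with earlier results of these data known. Genes called by under 9 lists were named with their number of calls, and those called by 9 with values. A few genes are counted but not reported by name here. Members whose calls differed between stages by 2 or more lists were named with the calling lists. Alternatives covered window, boundary, summit, threshold, list length, neighbours, strand, each list left out, and the sample number as a block. Alternative starts, the 77 subunit genes alone, and leaving out E11.5 samples 2 and 3 were chosen after seeing the data. Labels name biological samples but not litters, so p-values reflect only how far these samples spread, which may be technical.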

Additional observations from a re-analysis of the deposited data

How the results depend on the processing

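The lists hold no depth, so a gene without a call cannot be told from one below a list's reach. The reported stage shares were 38.1%, 64.8% and 30.8%, with 5 genes called in every list, 12 in none, 11 with opposite calls between stages and 3 with an unadjusted p under 0.05. Among peaks with −log10 q of 5 or more, the E10.5 share was 14.7% and the E12.5 share 8.42%, against 14.4% and 8.02% of all genes. The E11.5 share at this threshold was 57.9%, against 32.2% of all genes. Then 1 gene was called in every list (1.05% of all genes), and 5 had an unadjusted p under 0.05. In equal-length lists the E10.5 and E12.5 shares were 21.2% and 9.16%, against 19.1% and 10.8% of all genes. The E11.5 share fell from 64.8% to 41.8%, and that of all genes from 41.7% to 23.3%. This drop was smaller than the wide SD of the full E11.5 lists, 28.6, so it was not counted as a move. In the equal-length lists 2 genes were in every list (2.18% of all genes), 29 in none (58.0% of all genes) and 5 had an unadjusted p under 0.05. With the gene start only (70 genes), 3 were in every list (6.24% of all genes) and 6 had opposite calls. Without genes that have a neighbour (59 genes), 3 were in every list (4.61% of all genes), 5 had opposite calls and 1 had an unadjusted p under 0.05. The 77 subunit genes alone left 4 in no list. Without both E11.5 samples 2 and 3 the E11.5 share was 31.9%, from 1 list, against 21.8% of all genes. Then 27 genes were in no list, against 43.7% of all genes. With 1 E11.5 list left, no pattern of calls can give an unadjusted p under 0.05 in this test. The drops with gene start only, without neighbours and among subunits include fewer genes; the other causes were not tested.

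Leaving out 1 list at a time gave E10.5 shares of 36.3% to 41.2%, E11.5 shares of 56.6% to 81.3% and E12.5 shares of 25.8% to 33.5%. Over all genes these ran from 29.2% to 33.4%, 36.3% to 51.6% and 22.9% to 31.6%. Genes in every list numbered 5 to 7, genes in none 12 to 13, and opposite calls 11 to 36. Members with an unadjusted p under 0.05 numbered 3 to 17, both upper ends without E11.5 sample 1; they were 6 without E10.5 sample 1, 5 without E10.5 sample 3 and 6 without E12.5 sample 3. The exact permutation test with Benjamini-Hochberg adjustment passed 0 genes in each alternative that was run, each bound by its own smallest p. Sample numbers did not pair the samples: deviations of same-numbered lists correlated at −0.0921 to 0.00936. With the sample number as a replicate block, 0 members had an unadjusted p under 0.05, since the smallest p of that test is 0.111. Ranked only among peaks near a boundary, the mean of the E10.5 median percentiles was 50.2, in place of 70.3. On the gene strand alone, the ETS motif was in 24.3% of members (6.66% of all promoters), the GC box in 27.1% (30.8%) and CCAAT in 17.1% (22.9%). The GC box was thus above all promoters on both strands together (57.1% against 46.9%) and below them on the gene strand, while TATAAA was below them on both strands together (12.9% against 13.4%) and above on the gene strand (11.4% against 9.04%). The other 140 values kept to their side of the threshold, stayed within 1.5 times (counts), or moved by less than the spread between lists or, for motifs, within the 95% binomial interval. Part of these 140 could not have moved. Leaving out a list of 1 stage leaves the shares of the other stages as they were, and the genes passed were bound by the smallest p. The number 140 is therefore no measure of how stable the results are.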
